A study of Mus musculus with 6 samples.

Results

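The 7 Sox genes Sox4, Sox7, Sox9, Sox11, Sox13, Sox17 and Sox18 were read out in single-cell RNA counts of mouse lung. They were 7 of the 32285 genes listed and 7 of the 20 members of the Sox family listed there, Sry included. They were selected on measured values: their levels by cell class, and how these differed between postnatal day 1 and day 21 and between hyperoxia and room air in these same counts. Levels by class and both of those comparisons are therefore descriptions: their fitted differences and counts of calls are given, but no p-value, and they support nothing. The comparison of the sexes and its interaction with hyperoxia did not enter the choice and are tested.

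All mice were wild-type C57BL/6N. There were 6 libraries, each from the lungs of 3 pooled mice of 1 sex. The room air day 1 group had a female and a male pool, kept in 21% oxygen and killed on postnatal day 1. The room air day 21 group had a female and a male pool kept in 21% oxygen throughout. The hyperoxia day 21 group had a female and a male pool that were exposed to 95% oxygen on days 1 to 5 of life and returned to air until they were killed on day 21. Pups of different litters were randomised to oxygen or air, live cells were sorted, and the cell classes are the authors' own. With 1 pool per sex and group, the spread between animals of a pool is not seen, and intervals of a single library cover counting error only.

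Sox proteins bind DNA through an HMG box, a domain related to that of the male sex-determining factor Sry, and fall into groups by the similarity of that box. Sox7, Sox17 and Sox18 form the SoxF group, which acts in blood and lymph vessel formation, with Sox17 known for its role in arteries. Sox4 and Sox11 form the SoxC group, found in progenitors and immature cells of many tissues. Sox9, of the SoxE group, directs cartilage formation and marks the growing tips of the embryonic lung epithelium. Sox13 belongs to the SoxD group, whose members have no activation domain of their own.

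The SoxC pair is closest in the coding sequence of the HMG box shown here, 90 bases for each of 6 of the genes, 5′ to 3′ on the coding strand, starting at the conserved codons by which the box was found, from GENCODE M21 transcripts on GRCm38. Capitals mark bases that differ from Sox17.
Sox17: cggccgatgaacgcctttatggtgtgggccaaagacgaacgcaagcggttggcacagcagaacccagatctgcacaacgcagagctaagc
Sox18: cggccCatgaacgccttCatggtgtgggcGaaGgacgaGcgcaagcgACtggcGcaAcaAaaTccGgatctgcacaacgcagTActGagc
Sox9: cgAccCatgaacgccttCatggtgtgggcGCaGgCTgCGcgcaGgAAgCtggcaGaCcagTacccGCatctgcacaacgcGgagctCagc
Sox4: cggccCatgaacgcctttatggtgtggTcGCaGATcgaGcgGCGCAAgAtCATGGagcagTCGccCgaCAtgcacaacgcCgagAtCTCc
Sox11: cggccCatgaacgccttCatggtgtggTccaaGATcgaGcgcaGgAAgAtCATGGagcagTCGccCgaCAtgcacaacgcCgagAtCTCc
Sox13: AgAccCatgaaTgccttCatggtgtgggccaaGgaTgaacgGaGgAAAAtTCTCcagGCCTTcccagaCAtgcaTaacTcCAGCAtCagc
Sox4 and Sox11 shared 93.3% of these bases, the highest value of any pair of these genes. Sox17 and Sox18, of the SoxF group, shared 83.3%. Sox13 shared 63.3% to 70% with each of the other genes shown. The stretches lie at chr1:4493110-4493199 (Sox17, minus strand), chr2:181671192-181671281 (Sox18, minus), chr11:112782903-112782992 (Sox9, plus), chr13:28952752-28952841 (Sox4, minus), chr12:27342169-27342258 (Sox11, minus) and chr1:133385476-133385565 (Sox13, minus).

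The genes differ in intron length, which matters for the comparison of ages. Sox4 (chr13:28948919-28953713) and Sox11 (chr12:27334264-27342574) have no intron in the annotation. Sox18 (chr2:181669836-181671640) has 185 intron bases, Sox9 (chr11:112782224-112787760) has 1402, Sox17 (chr1:4490931-4497354) has 1652 and Sox7 (chr14:63943673-63950732) has 3761. Sox13 (chr1:133382303-133424377) has 37763. Sox17 overlaps Gm37587 on the opposite strand, a transcript that has its own counts in the files, and Sox4 overlaps Gm26735 on the opposite strand, which has none there. How reads of overlapping genes were assigned is not given in the sources used here.

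Promoters were matched for Sox4, Sox11 and Sox13 only. Those of the SoxC pair, both lower at day 21 than at day 1 in myofibroblasts, are shown. A link between promoter and level was not tested. They cover 250 bases before to 50 after the RefSeq start on GRCm38.p6, at chr13:28953650-28953949 for Sox4 and chr12:27342669-27342968 for Sox11, both on the minus strand. Capitals mark matches, on either strand, to the CCAAT box (CCAAT) and the GC box (GGGCGG).
Sox4: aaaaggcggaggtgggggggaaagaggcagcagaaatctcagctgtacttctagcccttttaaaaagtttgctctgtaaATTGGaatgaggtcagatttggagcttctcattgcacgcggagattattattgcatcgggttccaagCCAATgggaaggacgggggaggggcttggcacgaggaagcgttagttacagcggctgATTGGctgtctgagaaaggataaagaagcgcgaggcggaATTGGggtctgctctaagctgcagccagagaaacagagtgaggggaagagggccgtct
Sox11: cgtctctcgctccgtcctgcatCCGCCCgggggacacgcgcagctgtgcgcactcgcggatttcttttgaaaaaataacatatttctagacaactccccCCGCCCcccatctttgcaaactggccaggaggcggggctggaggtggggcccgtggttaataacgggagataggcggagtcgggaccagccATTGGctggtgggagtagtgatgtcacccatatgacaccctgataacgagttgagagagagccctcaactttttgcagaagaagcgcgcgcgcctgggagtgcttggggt
Sox4 held 4 CCAAT matches and no GC box, and Sox11 held 1 CCAAT match and 2 GC boxes. CCAAT was present in 37.4% and GGGCGG in 35.7% of all 32851 promoters of this length. The core Sox motif AACAAT (10.7% of promoters) and the TATA box TATAAA (13.6%) had no match in either window. GC content was 52% for Sox4 and 58.7% for Sox11, against a median of 52.7% over all promoters. These matches are letters in a window and were not tested for function.

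The libraries held 122173482 to 163649658 unique molecular identifiers (UMIs, one per captured transcript) and 7074 to 11543 cells with a class, at a median of 8329 to 9703 UMIs per cell. Levels are CPM, the counts of a gene scaled by the total UMIs of its class in a library. Between 26 and 62 cell barcodes were shared by any pair of libraries. Doublets, barcodes that look like 2 cells, made up 1.41% to 11.5% of the cells with a class and were kept unless stated. The female hyperoxia library stands apart: 35.5% of its general capillary cells had no UMI of Xist, the RNA of the silenced X chromosome, against 9.90% in the female pool of day 1 and 2.86% in that of room air at day 21. With cells lacking an Xist UMI left out of that library, 15 of 73 pairs of gene and class were called for hyperoxia against room air (background 2.45%, with 1.87% higher and 0.579% lower), among them 13 of the 14 called with all cells, and Sox11 in alveolar macrophages was the call lost. Within its aerocytes, cells without an Xist UMI had Sox9 at 59.5 and Sox17 at 54.2 CPM, and those with one had 45.3 and 70.5 CPM. The endothelial classes carried the summed RNA of Pecam1, Cdh5, Tie1, Emcn and Egfl7, used here as endothelial markers, at 2635 to 6422 CPM.

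Endothelium held most of the RNA of the 7 genes at day 21. Among cells with a class in the 4 libraries of that age, 93.5% to 97.5% of the UMIs of Sox7, Sox17 and Sox18, 89.4% to 95.2% of those of Sox9, Sox11 and Sox13 and 80.8% to 82.7% of those of Sox4 were in endothelial cells. At day 1 the SoxF genes were also mainly endothelial (79.4% to 86.3%). Sox4 (34.7% and 35.0%) and Sox9 (10.1% and 6.9%) were then mostly outside endothelium, in epithelial and mesenchymal cells. Sox11 was 37.7% and 49.8% endothelial at day 1 and 46.5% and 32.8% mesenchymal. These shares also depend on how many cells of each class a library held.

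**Figure D1:**
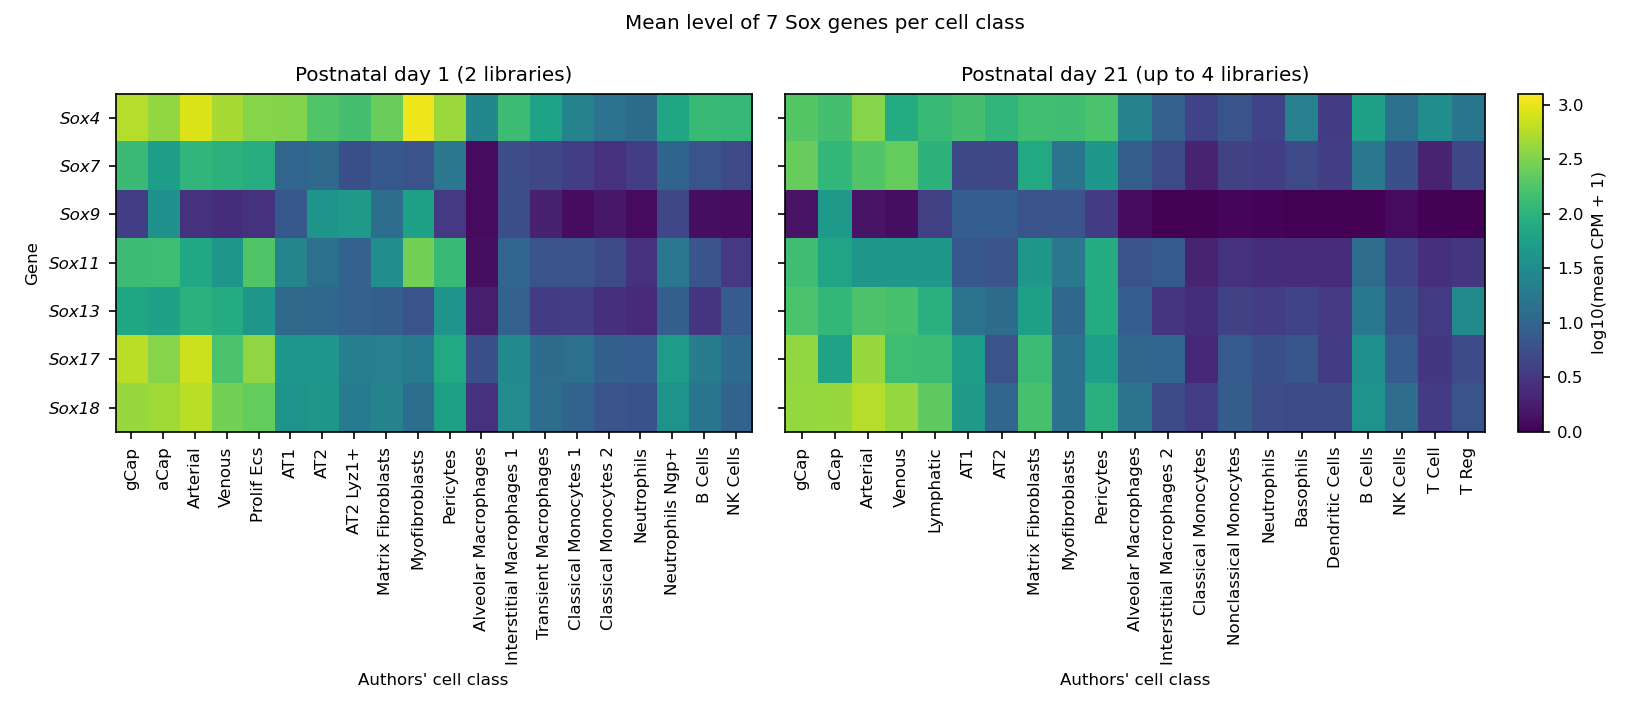
Mean level of each Sox gene (rows) in each of the authors' cell classes (columns) at day 1 and day 21, on a colour scale of log10(mean CPM + 1), over the libraries with at least 50 cells of the class. SoxF genes and Sox13 are bright in the endothelial columns at the left, Sox4 and Sox11 peak in myofibroblasts at day 1, and Sox9 is bright in aCap but not in gCap.

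Sox17 was highest in arterial cells and general capillaries (gCap, the capillary cells that renew the bed). At day 1 arterial cells had 671 and 775 CPM (female, then male, here and below), gCap 571 and 630, aerocytes (aCap, the capillary cells that face the air) 342 and 353, and veins 154 and 179. These 4 classes did not overlap at that age. At day 21 the arterial mean of 412 and the gCap mean of 395 CPM over 4 libraries lay within each other's range, veins followed at 135 and aerocytes at 60.3. In gCap thinned to 2000 UMIs per cell, 59.8% and 64.0% of cells at day 1 and 48.7% and 54.8% at day 21, for the air-kept pools, had a Sox17 UMI. Unthinned shares were 81.9% and 82.7% at day 1 and 87.5% and 89.6% at day 21. In thinned neutrophils, which should lack the gene, the share was 0.58% to 1.26%.

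Sox18 was present in each endothelial class. Arterial cells led at both ages, with 646 and 546 CPM at day 1 and a mean of 571 CPM at day 21. At day 21 aerocytes, veins and gCap had means of 419, 405 and 404 CPM and overlapping ranges, and lymphatic cells, present in sufficient number only after hyperoxia, had 221 and 222 CPM. Of these lymphatic cells 41 of 64 and 22 of 54 were called doublets, and the SoxF sum there was 475 and 432 CPM with doublets and 426 and 310 CPM without them. At day 1 veins were lower, at 297 and 271 CPM. The class named Venous then held the lymphatic marker Prox1 at 70.8 and 56.2 CPM, against 0 and 0 CPM in room air at day 21. The part of lymphatic RNA in the vein values of day 1 was not tested. Sox7 was highest in gCap at both ages (means 130 and 241 CPM), level with veins at day 21 (mean 235), and lower in arterial cells (182) and aerocytes (112). Arterial cells thus had more Sox17 than veins, a mean of 412 against 135 CPM at day 21, while for Sox7 the veins were the higher of the pair at that age. At day 1 the Sox7 ranges of arterial cells and veins overlapped (means 109.6 and 97.0 CPM).

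The SoxF genes overlapped in single cells. In thinned gCap 82.5% to 87.3% of cells of a library had a UMI of at least 1 of the genes, and 7.59% to 13.3% had all 3. Arterial cells reached 84.6% to 92.3% with at least 1. Aerocytes had 77.5% and 78.1% at day 1 and 63.2% to 69.6% in the 4 libraries of day 21. The shares of gCap with Sox18 were near each other in cells with and without a Sox17 UMI: among thinned gCap of the female pool in room air at day 21, 49.2% of cells with Sox17 and 45.6% of those without it had Sox18, and in the male pool 58.7% and 57.8%. In aerocytes the cells with Sox17 had the higher share in the female pools of day 1 (63.6% and 52.5%) and room air day 21 (61.4% and 52.4%), and the lower share in the other 4 libraries, from 56.1% and 56.2% in the male pool of day 1 to 52.2% and 57.03% in the male hyperoxia pool.

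Sox4 was highest in myofibroblasts of the newborn lung. They had 1011 and 1108 CPM at day 1, above arterial cells at 857 and 875, gCap at 568 and 558 and AT1 cells, the flat cells of the air surface, at 315 and 352. Sox11 was also highest there, at 271 and 289 CPM. Proliferating endothelial cells followed for Sox11 with 159.8 and 197 CPM, then aerocytes and gCap with overlapping ranges around means of 135 and 131 CPM. At day 21 the arterial cells led for Sox4 (mean 340.0 CPM) and gCap for Sox11 (mean 139 CPM). Below the arterial cells, the Sox4 ranges of gCap, pericytes, aerocytes, AT1 cells and both fibroblast classes each overlapped with the next at day 21.

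Sox9 was found in myofibroblasts (63.1 and 52.2 CPM), newborn type 2 cells with Lyz1 (47.7 and 45.3), other type 2 cells (41.8 and 36.4) and aerocytes (36.5 and 33.1) at day 1. At day 21 aerocytes led with 51.7 and 44.9 CPM in the air-kept pools and 49.1 and 36.6 CPM in those exposed to oxygen. The next class at that age was type 2 cells, at a mean of 7.42 CPM and with no overlap. In gCap Sox9 was at 0.26 to 3.06 CPM in the 6 libraries. The summed RNA of 4 type 2 markers was 118 to 865 CPM in aerocytes and 159 to 916 CPM in gCap, and was higher in gCap in each of the 6 libraries. The defining cartilage genes Col2a1, Acan, Matn1 and Cnmd together reached at most 1.6 CPM in myofibroblasts at any age.

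Sox13 was spread over the endothelium. At day 21 the means of arterial cells (172), gCap (163), veins (158) and aerocytes (113) each overlapped in range with the next. Outside the endothelium it had a mean of 80.7 CPM in pericytes, the cells that wrap capillaries, 56.3 CPM in matrix fibroblasts, and 25.3 to 35.4 CPM in room air in the class named T Reg. The pericytes of day 21 held the endothelial markers at 1009 to 1126 CPM, or 419 to 998 CPM without doublets. Matrix fibroblasts of that age held the same markers at 1320 to 2206 CPM, or 1338 to 2111 CPM without doublets. The part of endothelial RNA in the Sox13 values of both classes was not tested. In T Reg cells in room air Sox7 was at 1.75 and 1.49 CPM and the endothelial markers summed to 158 and 152 CPM. The class named T Cell had 4.08 and 0.71 CPM of Sox13 with the markers at 313 and 266 CPM. The part of endothelial RNA in the T Reg value was not tested.

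Immune and mesenchymal classes also held SoxF RNA, and endothelial marker RNA with it. The sum of Sox7, Sox17 and Sox18 was 18.3% to 26.3% of the 5 endothelial markers in gCap. It varied within the endothelium, from 8.45% to 15.5% of them in aerocytes to 15.3% to 20.9% in veins and 23.6% to 38.5% in arterial cells. It was 14.8% and 13.8% of them in alveolar macrophages after hyperoxia, 19.8% and 16.6% in matrix fibroblasts at day 1, and 17.9% to 22.8% in matrix fibroblasts at day 21. The ratio was not the same everywhere: the T Cell class had the markers at 266 to 329 CPM but SoxF at 2.86 to 10.1 CPM, or 1.08% to 3.07%. In the male room air library of that class 1 of 882 cells was called a doublet, and the markers stayed at 266 CPM without it. B cells at day 21, without doublets, had the markers at 341 to 537 CPM and SoxF at 1.71 to 6.31 CPM. Nonclassical monocytes in room air had a ratio of 4.68% and 7.34%. What part of the marker sum in immune classes was endothelial RNA was not tested. Without doublets, SoxF in AT1 cells at day 1 was 25.1 and 18.9 CPM in place of 107 and 69.6.

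**Figure D2:**
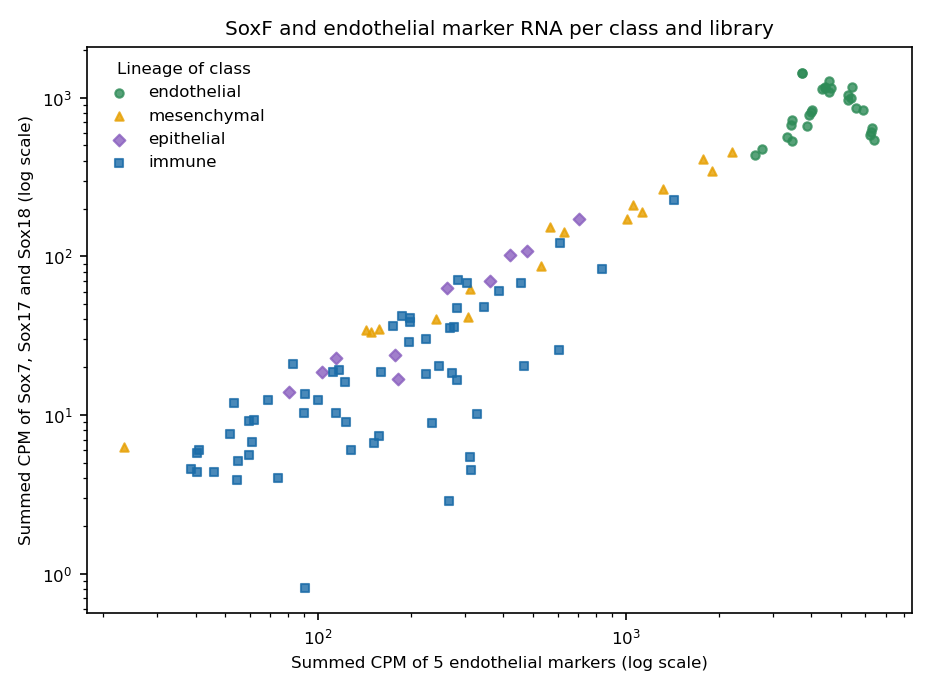
Summed CPM of Sox7, Sox17 and Sox18 against the summed CPM of 5 endothelial markers, 1 point per class and library with at least 50 cells, both axes logarithmic, coloured by lineage. The endothelial classes sit at 432 CPM of SoxF and 2635 CPM of markers or higher, and classes of the other lineages lie at lower marker values, with T cells low in SoxF for their markers.

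Between day 1 and day 21 in room air, Sox4 was lower in each of the 10 classes compared, Sox17 was lower in 9 of 10, and Sox7 was higher in each of 8. Of these, Sox4 was called lower in 10, Sox17 in 8 (and higher in 1), and Sox7 was called higher in 6. Log2 differences below come from edgeR fits with sex as a covariate, with the standard error of the fit. Over the 54 pairs of gene and class, 38 were called at an adjusted p under 0.05 (14 higher, 24 lower), where 54.3% of all gene and class pairs were called. Because this comparison chose the genes, nothing is read from that count. With scaling and testing limited to genes with at most 5000 intron bases, 29 of 47 pairs were called, 16 higher and 13 lower, where 32.6% of all pairs in that fit were called (16.7% higher, 15.9% lower). Sox4 was then called lower in 8 of 10 classes and Sox7 higher in 6 of 8, but Sox17 was called lower in 1 of 10, aerocytes, and higher in 1, matrix fibroblasts.

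The ages also differ in processing. The day 1 libraries were counted with Cell Ranger 6.0.0 and those of day 21 with 7.0.1, per the file headers, so age and version cannot be told apart. In gCap the median log2 difference was -0.70 over genes with no intron, -0.69 over genes with 1 to 5000 intron bases and 0.47 over genes with more than 20000. Values near these medians are those of a typical gene of that intron length. Whether reads in introns were counted is not given in the sources used here.

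Sox4 in gCap was at 568 and 558 CPM at day 1 and 200.05 and 199.75 CPM at day 21, a log2 difference of -1.62 ± 0.12. The pools of the ages were far apart and the sexes nearly level. In myofibroblasts it was at 1011 and 1108, then 144 and 125 CPM (-3.07 ± 0.17). In veins it was at 536 and 439, then 68.4 and 71.8 CPM (-2.93 ± 0.25). Each of these lies below the median of genes without introns, and in the fit limited to short introns the differences were -0.96 (gCap), -2.42 (myofibroblasts) and -2.18 (veins). In matrix fibroblasts, by contrast, Sox4 at 269 and 225, then 142 and 160 CPM (-0.90 ± 0.17) was near that median, and was -0.25 on the short-intron scale. The makeup of that class differed with age: the endothelial markers summed to 313 and 242 CPM in it at day 1 and to 1320 and 1786 CPM at day 21. The part of this in the Sox4 value was not tested. The class named Venous also changed in makeup. In it 4 lymphatic markers summed to 390.2 and 459 CPM at day 1 and to 29.2 and 27.3 CPM at day 21. Their part in the age differences of veins, for Sox4 and for the other members, was not tested.

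Sox11 differed by class. In myofibroblasts it was at 271 and 289 CPM at day 1 and at 23.5 and 13.8 CPM at day 21 (-4.07 ± 0.23), the lowest difference of any pair. In aerocytes it was at 125 and 145, then 82.1 and 65.1 CPM (-0.96 ± 0.16), or -0.47 on the short-intron scale and -0.39 over genes without introns only, where it was not called. In gCap it was instead at 122 and 140.2, then 167 and 172 CPM (0.25 ± 0.12), and the pools of the ages did not overlap. The gCap difference was 0.91 on the short-intron scale and 0.85 over genes without introns only. In arterial cells the value was -0.46 ± 0.16, and it turned to 0.19 in the fit over genes without introns only.

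Sox17 in aerocytes showed the lowest difference of a SoxF gene in an endothelial class. It was at 342 and 353 CPM at day 1 and at 50.03 and 56.0 CPM at day 21 (-2.80 ± 0.17), and -2.31 ± 0.11 on the short-intron scale. The thinned share of aerocytes with a Sox17 UMI was 48.4% and 46.0% at day 1 and 7.72% and 6.63% at day 21. In gCap the gene was at 571 and 630, then 370.1 and 450.1 CPM (-0.68 ± 0.11), the median of genes of its intron length, and -0.02 ± 0.08 on the short-intron scale. Arterial cells had -0.90 ± 0.13, and -0.20 ± 0.14 on that scale. Of the 4 endothelial classes compared, aerocytes were thus the one in which Sox17 lay farthest from the median of short-intron genes.

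Sox18 was close to level in CPM. In aerocytes it was at 469 and 431 CPM at day 1 and at 377 and 465 at day 21 (-0.19 ± 0.15), and the pools of the ages overlapped. The same held in gCap, at 439 and 389, then 345 and 454 CPM (-0.19 ± 0.12). Sox7 in gCap was at 139.7 and 119 CPM, then 252 and 255 CPM (0.85 ± 0.12), in aerocytes at 55.1 and 52.3, then 115 and 119 CPM (1.04 ± 0.17), and in veins at 113 and 81.4, then 223 and 234 CPM (1.11 ± 0.23). The pools of the ages did not overlap for Sox7 in any of these classes. The class of veins also changed in makeup with age, as given above, and the part of this in its Sox7 values was not tested. On the short-intron scale Sox7 was higher by 1.51 in gCap, 1.53 in aerocytes and 1.86 in veins, and Sox18 by 0.47 in gCap and 0.30 in aerocytes. Sox18 thus changed sign in these 2 classes. It was called higher in 5 of 9 classes and lower in 0 on that scale, against 1 higher and 1 lower of 8 in the main fits.

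Sox13 in gCap was at 67.2 and 66.7 CPM at day 1 and at 163 and 159 CPM at day 21 (1.14 ± 0.12). It was 0.81 ± 0.17 in aerocytes, 0.72 ± 0.15 in arterial cells and 0.64 ± 0.24 in veins. The median of genes with more than 20000 intron bases was 0.38 in aerocytes, 0.50 in arterial cells and 0.49 in veins, and Sox13, with its long introns, has no value on the short-intron scale.

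Sox9 was lower in myofibroblasts and gCap at day 21 and not in aerocytes. It was at 63.1 and 52.2, then 7.8 and 7.4 CPM in myofibroblasts (-2.98 ± 0.32). In gCap, at a far lower level, it was at 2.36 and 3.06, then 0.60 and 0.26 CPM, from 10 and 3 UMIs (-2.65 ± 0.49, called), and -1.996 on the short-intron scale. In aerocytes it was at 36.5 and 33.1, then 51.7 and 44.9 CPM (0.39 ± 0.18, not called), and 0.88 ± 0.15 and called on the short-intron scale. Type 2 cells had 41.8 and 36.4 CPM at day 1 and 7.32 CPM in the room air library at day 21 with at least 50 of these cells. No fit was made for type 2 cells, and 45 of the 54 type 2 cells of the female day 1 library were called doublets.

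Matrix fibroblasts were the class in which Sox17 was higher at day 21, and the other SoxF genes and Sox13 were higher there too. Sox7 was at 7.7 and 4.7, then 57.1 and 78.6 CPM (3.15 ± 0.32), Sox17 at 27.5 and 15.4, then 83.9 and 173 CPM (2.23 ± 0.29), Sox18 at 26.6 and 20.1, then 123 and 156 CPM (2.34 ± 0.21), and Sox13 at 8.2 and 7.4, then 45.0 and 61.1 CPM (2.53 ± 0.32). The 5 endothelial markers, none at 0, summed to 313 and 242 CPM at day 1 and to 1320 and 1786 CPM at day 21 in this class. In the female air-kept pool of day 21, 52 of its cells had at least 10 UMIs of the fibroblast markers Col1a1, Col1a2, Pdgfra and Dcn, and these cells had SoxF at 50.4 CPM. Another 40 cells had 1 to 9 such UMIs and SoxF at 734 CPM, and 10 cells had none and SoxF at 707 CPM. In the male library the values were 161 CPM (30 cells), 933 CPM (21 cells) and 843 CPM (7 cells). At day 1, 246 and 149 cells had at least 10 of these UMIs, with SoxF at 63.3 and 39.5 CPM. The groups by fibroblast UMIs were set after the values were seen. In room air at day 21, SoxF RNA was mainly in cells of this class with fewer than 10 fibroblast UMIs, where the endothelial markers were at 3544 to 4572 CPM.

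**Figure D3:**
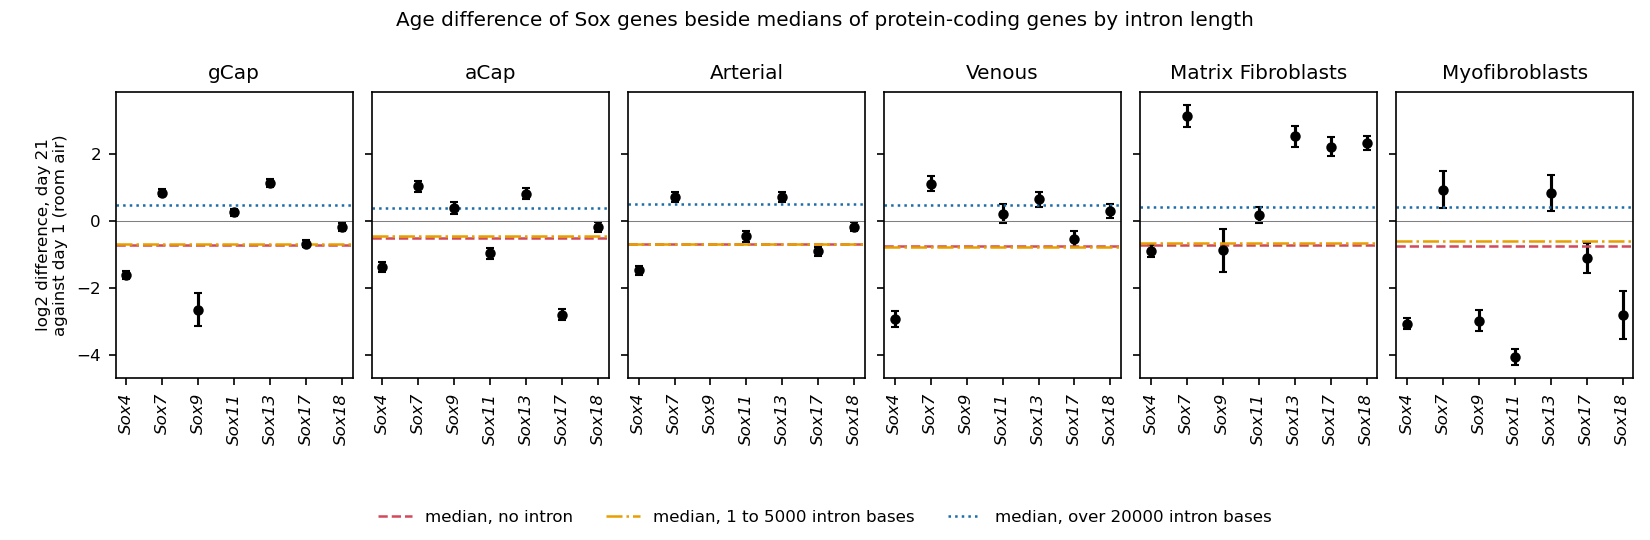
Log2 difference of each Sox gene between day 21 and day 1 in room air (points, bars of 1 SE) in 6 classes, with the class medians of genes without introns, with short introns and with long introns as lines. Sox4 lies below the lines in each of the 6 classes, though near the lower lines in matrix fibroblasts. Sox17 lies on the short-intron line in gCap but far below it in aCap, and the SoxF genes and Sox13 are high in matrix fibroblasts.

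After hyperoxia, Sox11 was lower in both pools of each of 4 endothelial classes, and was called in gCap and arterial cells but not in aerocytes or veins. In gCap Sox11 was at 167 and 172 CPM in room air and at 112 and 106 CPM after hyperoxia, a log2 difference of -0.62 ± 0.08. In arterial cells it was at 52.9 and 54.5, then 33.1 and 28.2 CPM (-0.79 ± 0.16). In aerocytes it was at 82.1 and 65.1, then 59.0 and 49.3 CPM (-0.43 ± 0.09), and in veins at 46.9 and 64.9, then 30.3 and 35.5 CPM (-0.74 ± 0.29). The pools of the groups did not overlap in any of the 4 classes, and both sexes were lower in each. Thinned shares of gCap with a Sox11 UMI were 27.5% and 25.7% in room air and 18.01% and 16.5% after hyperoxia. Unthinned they were 61.1% and 58.5%, then 48.4% and 41.9%.

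Over 78 pairs of gene and class in 14 classes, 14 were called, 12 higher (background 1.63% of all gene and class pairs) and 2 lower (background 0.654%). Both directions together had a background of 2.28%. The rule used this contrast, so the count is a description. The 2 lower calls were Sox11 in gCap and in arterial cells. Without the male hyperoxia library neither was called, at -0.58 and -0.67, and without the female hyperoxia library both were called, at -0.67 and -0.91. In each of these fits hyperoxia has 1 library, which is assumed to vary like the room air pools of day 21, and sex is no covariate. The arterial call was also lost when either room air library was left out, with equal numbers of cells and without sex as a covariate, and DESeq2 gave no adjusted p for it. With the cells lacking Xist left out of the female hyperoxia library the values were -0.62 and -0.78. Within that library, gCap without an Xist UMI had Sox11 at 112 CPM and those with one at 111 CPM.

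The other 5 members fitted in gCap (all but Sox9) lay between -0.17 ± 0.08 (Sox4) and 0.07 ± 0.07 (Sox13). In aerocytes Sox17 was at 50.03 and 56.0 CPM in room air and at 66.1 and 69.2 CPM after hyperoxia (0.36 ± 0.09), without overlap of the groups, and was not called. Doublets made up 37 of 916 and 7 of 682 aerocytes in room air and 86 of 929 and 144 of 1301 after hyperoxia. The SoxF sum there was 542 and 639, then 606 and 581 CPM with doublets. Without them it was 533 and 641, then 588 and 559 CPM. Sox17 was a small part of this sum, which therefore does not show what leaving out doublets did to Sox17 itself. Sox9 in aerocytes was at 51.7 and 44.9, then 49.1 and 36.6 CPM (-0.17 ± 0.09), with overlap. Sox18 lay between 0.00 and 0.20 in the 4 endothelial classes. In veins Sox13 was 0.41 ± 0.21 and Sox4 was 0.32 ± 0.25, neither called. Differences of the size of these standard errors are not detectable with 2 pools a group.

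**Figure D4:**
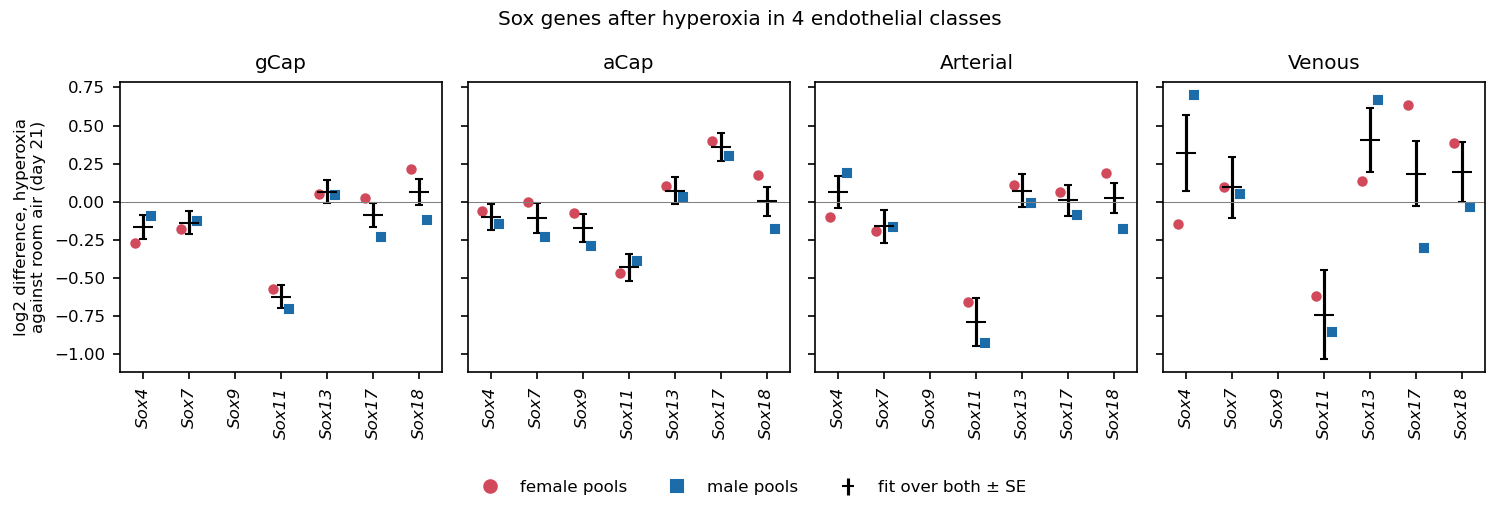
Log2 difference between hyperoxia and room air at day 21 for each Sox gene in 4 endothelial classes, with the female pools (circles), the male pools (squares) and the fit over both (black, 1 SE). Sox11 is the gene that lies below -0.35 in both sexes in each class.

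The 12 higher calls were outside the endothelium. Alveolar macrophages had 6 of them (Sox4, Sox7, Sox11, Sox13, Sox17 and Sox18), nonclassical monocytes 4 (Sox4, Sox7, Sox17 and Sox18) and B cells 2 (Sox7 and Sox17). Of all genes tested in these classes 10.9%, 6.03% and 1.68% were called in either direction. In alveolar macrophages Sox18 was at 1.5 and 1.7 CPM in room air and at 33.1 and 22.1 CPM after hyperoxia (4.04 ± 0.30). The endothelial markers, none at 0, summed there to 40.9 and 60.9, then 455 and 347 CPM, and 33 of 136 and 53 of 308 cells were called doublets after hyperoxia. With doublets left out SoxF in these cells was 5.67 and 5.51 CPM in room air and 9.46 and 9.39 CPM after hyperoxia, against 6.00 and 6.75, then 67.5 and 47.7 with them. In B cells, SoxF went from 25.6 and 20.3 to 83.2 and 225 CPM with doublets, and was 2.66 and 1.71, then 6.31 and 3.07 CPM without them. In nonclassical monocytes the markers went from 128 and 124 to 283 and 276 CPM and SoxF from 6.01 and 9.07 to 16.5 and 35.8 CPM. Without doublets SoxF there was 4.65 and 6.41 CPM in room air, then 7.16 and 10.9 CPM. Over all classes without doublets, 5 of 56 pairs were called (background 1.23%, with 0.638% higher and 0.594% lower): Sox4 (0.88) and Sox18 (1.87) higher in alveolar macrophages, and Sox11 lower in gCap, arterial cells and aerocytes.

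**Figure D5:**
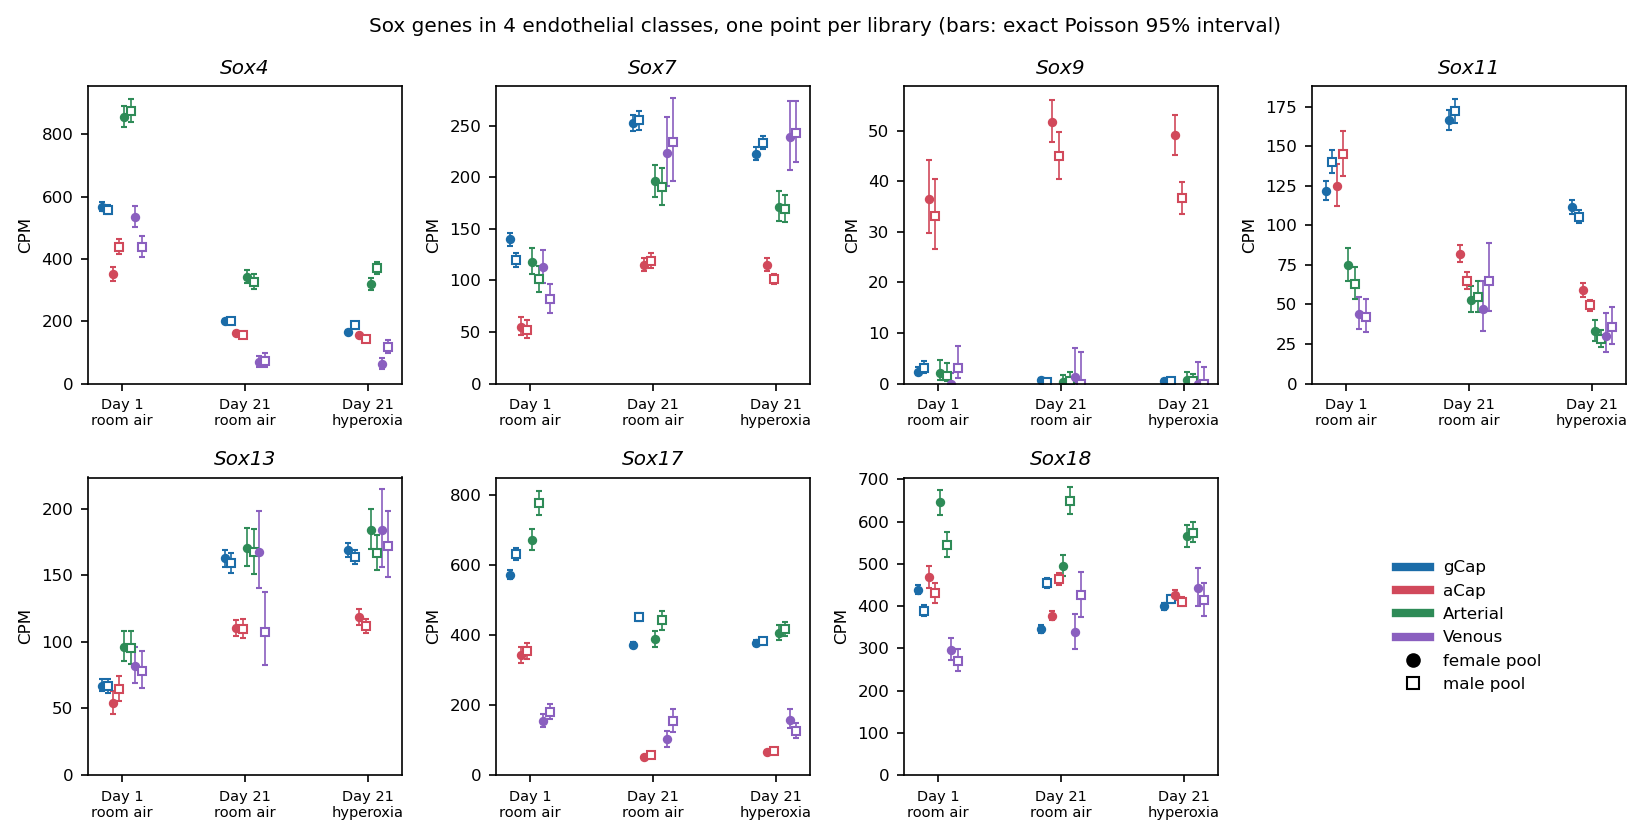
Level (CPM, vertical axis from 0) of each Sox gene in 4 endothelial classes by group (horizontal), 1 point per library with its exact Poisson 95% interval, filled for female and open for male pools. Sox4 is lower at day 21 in each class, Sox17 in aCap is at 342 and 353 CPM at day 1 and 50.03 and 56.0 CPM at day 21 in room air, Sox9 is higher in aCap than in the other 3 classes, and Sox11 in gCap is lower after hyperoxia than in room air.

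The sexes were compared over the 6 libraries with the condition as a covariate. Because many cells of the female hyperoxia library lacked Xist, whether all its cells were female is not known, and its sex here and in the interaction is that of its label. No member was called in any of 63 pairs of gene and class by edgeR (background 0.105% of all gene and class pairs, 0.0452% higher and 0.0603% lower in females), 6 pairs had an unadjusted p under 0.05, and DESeq2 called 0. The smallest adjusted p from edgeR was 0.57, for Sox17 in gCap, which was lower in the female pool in 3 of 3 conditions (-0.17 ± 0.07). Sox9 in aerocytes was higher in the female pool in 3 of 3 conditions (0.27 ± 0.10, edgeR adjusted p = 0.86). In gCap the 7 differences lay between -0.17 and 0.04, with standard errors of 0.06 to 0.09 except for Sox9 (0.38).

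The sex difference after hyperoxia was set against that in room air over both ages. Hyperoxia has 1 female and 1 male library, so the spread in this test comes from the room air pools of the ages alone. Of 64 pairs 1 was called by edgeR (background 0.428%, with 0.142% higher and 0.286% lower), Sox18 in neutrophils, at -2.60 ± 0.63 (adjusted p = 0.007). Its counts were 33 and 13 UMIs at day 1, 41 and 14 at day 21 in the air-kept pools, and 13 and 55 in those exposed to oxygen, or 7.19 and 2.86, 4.01 and 2.52, and 2.66 and 8.20 CPM. The female pool was higher in both room air conditions and the male pool after hyperoxia. The endothelial markers in these neutrophils followed the same order, at 82.6 and 61.8, 90.9 and 51.7, and 90.2 and 123 CPM, and their part in the result was not tested. Without doublets the difference was -1.76 and not called (adjusted p = 0.579), without the cells lacking Xist it was -2.64 and not called (adjusted p = 0.136), and over the alternatives its adjusted p ran from 0.006 to 1.00 (DESeq2). In the endothelial classes no member was called, and the difference for Sox11 was 0.24 ± 0.20 in gCap and 0.16 ± 0.31 in arterial cells.

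Genes of related pathways were read from the same fits. Of the VEGF and Notch list (17 genes, among them the receptors Kdr and Flt1 and the ligand Dll4), 29 pairs of gene and class rose and 1 fell of 190 after hyperoxia, with a median of 0.17. In alveolar macrophages Kdr rose by 2.65 ± 0.25 (5.3 and 7.2, then 55.7 and 27.9 CPM) and Efnb2 by 3.44 ± 0.22, in the class where the endothelial markers were high after hyperoxia. In myofibroblasts Flt1 rose by 3.55 ± 0.35 (3.13 and 11.1, then 48.4 and 122 CPM) and Kdr by 2.84 ± 0.36 (1.57 and 16.6, then 48.4 and 89.2 CPM). The endothelial markers in that class were at 23.5 and 148, then 307 and 531 CPM, and without doublets at 22.6 and 48.7, then 45.8 and 78.7 CPM. Of the endothelial transcription factors 26 of 186 pairs rose and 0 fell, with a median of 0.13, of the Wnt genes 12 rose and 2 fell of 141 (0.14), and of the SoxC-linked genes 3 rose and 0 fell of 41 (0.03). Of the calls in these 4 lists 11 of 30, 9 of 26, 5 of 14 and 2 of 3 were in alveolar macrophages. With doublets left out, a setting added for these lists after seeing the data, the VEGF and Notch list had 7 higher and 1 lower of 159 (median 0.04), the endothelial factors 5 higher of 162 (0.04) and the SoxC-linked genes 2 higher of 37 (-0.10). edgeR then called 0 of 125 Wnt pairs, 10 of which had an unadjusted p under 0.05. Of the distal epithelial progenitor list 2 rose and 5 fell of 73 (median -0.13), and with doublets left out 0 rose and 6 fell of 69 (median -0.12). No epithelial class was fitted, so these pairs are in endothelial, mesenchymal and immune classes and do not describe the epithelium. With all cells, Id2, a partner that blocks helix-loop-helix factors, fell in gCap from 62.8 and 74.1 to 42.5 and 45.2 CPM (-0.62 ± 0.09). Bmp4, a growth factor, fell in arterial cells from 64.2 and 78.3 to 41.9 and 36.0 CPM (-0.85 ± 0.14). Of the cartilage list 1 of 8 pairs rose, Hapln1, a matrix link protein, in aerocytes (23.8 and 24.8, then 36.5 and 37.5 CPM). Background shares are those given above, and the lists were chosen with earlier results of these data known.

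With age, 53 of 67 pairs of the distal epithelial progenitor list passed the test (20 higher, 33 lower), 76 of 137 of VEGF and Notch (41 and 35), 89 of 134 of the endothelial factors (53 and 36), 60 of 94 of Wnt (42 and 18), 17 of 28 of the SoxC-linked genes (2 and 15) and 9 of 10 of the cartilage list (1 and 8). These stand beside 28.6% higher and 25.7% lower over all pairs. No epithelial class was fitted for age, sex or the interaction either, so the distal epithelial list was read outside the epithelium there too. The counts also carry the difference by intron length given above, and no count on short introns was made for the lists. Several of the genes have long introns, such as Flt1 (150904 intron bases), Erg (223959) and Hapln1 (65955). Age and Cell Ranger version cannot be told apart here either. Tead2, which acts in the growth-control pathway of Yap, fell in aerocytes from 47.7 and 47.6 to 9.94 and 10.4 CPM (-2.31 ± 0.21) and in myofibroblasts from 75.5 and 64.5 to 20.4 and 12.9 CPM (-2.20 ± 0.27). Hapln1 in gCap fell from 41.2 and 52.6 to 1.14 and 0.34 CPM (-5.94 ± 0.25). Between the sexes 0 pairs of any of these lists were called by edgeR, with 1 to 17 pairs per list at an unadjusted p under 0.05. For the interaction of sex and hyperoxia edgeR called 4 of 156 VEGF and Notch pairs, 1 of 110 Wnt pairs and 1 of 80 pairs of the distal epithelial list. Kdr, Flt4 and Id2 were called in neutrophils, the class of the Sox18 call, with Kdr at 8.50 and 6.16, 10.9 and 6.13, then 6.14 and 12.4 CPM (-1.69 ± 0.46). Of all genes tested in neutrophils 1.13% were called, against 0.428% over all pairs. The calls in other classes were Nrp2 in arterial cells (3.30 ± 0.64), Nrp1 in B cells (-2.03 ± 0.38) and Tcf7 in myofibroblasts (2.96 ± 0.74).

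Genes with the most similar pattern were ranked by Pearson r of log2(CPM + 1) over 112 sums of class and library, among 15184 genes. The sums share libraries and depth, so r is a description. Sox18 came closest to Tie1 (r = 0.98), then Egfl7 and Ramp2, and Sox17 to Clec14a (0.97), Ramp2 and Egfl7. Sox7 came closest to Hspa12b (0.97), Tspan7 and Fgd5, and Sox13 to Epas1 (0.96), Nova2 and Tspan7. Sox11 came closest to Mfap2 (0.94), Cdc42ep1 and Foxf1, and Sox4 to Ddah2 (0.91), Ppic and Zfp580. Sox9 had no close match, its highest values being Fat1 (0.72), Prrg3 and Apbb1. With a pseudocount of 10 CPM the first gene was again Tie1, Clec14a and Ddah2 for Sox18, Sox17 and Sox4, but Fgd5 for Sox7, Nova2 for Sox13, Mpzl1 for Sox11 and Ccdc68 for Sox9. Among the members, on log2(CPM + 1), Sox17 and Sox18 had r = 0.95, Sox4 and Sox11 had 0.82, and Sox9 and Sox7 had 0.21. Sox11 was no closer to Sox4 than to the SoxF genes, with 0.86 for Sox17, 0.84 for Sox18 and 0.83 for Sox7. With a pseudocount of 10 CPM Sox11 had 0.82 with Sox17, 0.81 with Sox4, 0.79 with Sox18 and 0.76 with Sox7. Sox13 had 0.92 with Sox7 and 0.91 with Sox18 on log2(CPM + 1).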

How the data were processed

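Lung cells of 6 libraries were measured by 10x Genomics 3-prime single-cell RNA sequencing, per the labels' protocols. The deposited matrices hold whole-number UMI counts per gene and barcode, made by the authors with Cell Ranger 6.0.0 (day 1) and 7.0.1 (day 21), per the file headers. Seurat 4.1.1 and the genome mm10 are named in the submitters' processing notes. The cell classes are those of the authors' deposited annotation, and 20142 barcodes without one entered no comparison.

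Counts were summed per class and library with at least 50 cells. edgeR 4.0.16 (R 4.3.3) fitted the sums with filterByExpr, TMM scaling and the quasi-likelihood test, with Benjamini-Hochberg adjustment within each class across its tested genes (calls at an adjusted p under 0.05). The covariate was sex, or the condition for the sex comparison, and the interaction was set against the sex difference in room air at both ages. The fits were tested on counts simulated from gCap, a class with many cells. Changes were set only in genes above a minimum level, with the same dispersion for all genes and no effect of the covariates. Recovery in smaller classes or for genes at a few CPM was not simulated. For the hyperoxia comparison 94 of 100 genes changed by 1 on the log2 scale were recovered in gCap, for the sex comparison 100, for age 88, and for the interaction 20.

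CPM intervals are exact Poisson 95% intervals. Shares were thinned to 2000 UMIs per cell, and shallower cells were left out. In gCap 113 and 129 cells were left out at day 1 and 9 to 21 per library at day 21. Doublets were called by Scrublet in scanpy 1.11.5. Sequences come from GENCODE M21 and RefSeq tables, which matched 3 of the 7 promoters. The HMG box stretch of 1 member is not reported here. Other settings tried were doublets left out, upper-quartile scaling, DESeq2 1.42.0, no count filter, a stricter cell filter (at least 1000 genes, at most 10% mitochondrial UMIs), equal cell numbers, no sex covariate, each library left out, and genes without introns only. Those on cells without Xist and on genes with at most 5000 intron bases were chosen after seeing the data, as was leaving out doublets for the pathway lists.

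All 7 members are named in full. Of each list at most 4 called pairs with the smallest adjusted p per comparison were eligible for naming, and of similar genes the 3 nearest. The members and lists were chosen with earlier results of these data known.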

Additional observations from a re-analysis of the deposited data

Results flagged for a closer look

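Sox18 in neutrophils was called by edgeR for a sex difference after hyperoxia that differed from that in room air, by -2.6 on the log2 scale in the interaction term, from counts of 13 to 55 UMIs per library. The call was lost with DESeq2 (adjusted p = 1.00), with doublets left out (-1.76, edgeR adjusted p = 0.579), with equal numbers of cells (0.170) and with the cells lacking Xist left out of the female hyperoxia library (0.136).

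The barcodes without a class, which enter no comparison, held RNA of each member above the limit of 3 UMIs that a count of 0 allows. Over 20142 such barcodes the levels were 110 CPM for Sox4, 24.8 for Sox7, 11.2 for Sox9, 21.9 for Sox11, 22.5 for Sox13, 50 for Sox17 and 64.5 for Sox18. In the cells with a class they were 166, 57.2, 9.95, 44.4, 45.5, 113 and 142 CPM. These levels are pooled over libraries, which differed: Sox9 in barcodes without a class ran from 2.50 to 28.9 CPM by library.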

How the results depend on the processing

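For hyperoxia against room air, 14 member pairs were called as reported, 9 with DESeq2, 25 with no filter on low counts, 5 with doublets left out and 7 without sex as a covariate, and 9 to 17 when each library was left out (9 without the male hyperoxia library). With doublets left out Sox17 in alveolar macrophages was -0.029. For day 21 against day 1, 38 of 54 pairs were called, where 54.3% of all pairs were. With genes without introns only, 12 of the 16 pairs that remained testable were called, and the share over all pairs is not given for that fit. Sox11 in arterial cells was then 0.19, and on the scale of genes with at most 5000 intron bases it was 0.25 and Sox17 in veins 0.20. The interaction called 1 of 64 pairs as reported, against 0.428% of all pairs. It called 0 with DESeq2, 2 with no filter, 0 with doublets left out, 2 with the stricter cell filter, 0 with equal numbers of cells and 0 with the cells without Xist left out. Shares over all pairs are not given for these alternatives of the interaction, which could not be fitted with a library left out. The sex comparison called 0 under each of its alternatives. The causes of these shifts were not tested, apart from the smaller number of pairs tested under some settings.

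Depth limits the rarer classes. At day 21 myofibroblasts had 56 to 98 cells per library and a count of 0 allows up to 2.76 to 4.70 CPM there.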

Other observations

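Among the Sox genes outside the 7, Sox5 had the highest level in a class, with a mean of 1625 CPM in pericytes. In room air it rose with age by 2.71 ± 0.16 in myofibroblasts (86.0 and 94.8, then 614 and 641 CPM) and by 3.90 ± 0.20 in matrix fibroblasts (18.9 and 23.4, then 370.1 and 332 CPM), by edgeR. Sox5 has 939177 intron bases, and age and Cell Ranger version cannot be told apart. Sox12, the third SoxC gene, has no intron and fell in gCap from 10.8 and 11.4 to 2.11 and 2.05 CPM (-2.53 ± 0.25), in the same direction as Sox4 there and opposite to Sox11. Of the 12 other Sox genes, 3 could be tested with age, in 16 pairs (7 called higher, 6 called lower). Over all pairs 28.6% were called higher and 25.7% lower. For the oxygen exposure edgeR called 0 of 17 pairs (background 2.28%), with 4 at an unadjusted p under 0.05. With doublets left out it called 1 of 18 (background 1.23%), Sox5 in aerocytes (1.09 ± 0.25).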
